A study of Homo sapiens with 18 samples.

Results

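The data compared here answer 1 question: does calcitonin gene-related peptide (CGRP) change gene expression by a different amount when glycolysis is blocked? The comparison is a difference of differences. The effect of CGRP in medium with 2-deoxyglucose (2-DG), CGRP minus control, was set against its effect in plain high-glucose medium, and the second was subtracted from the first. It used 12 of the 18 libraries of the series, 3 in each of 4 groups. All came from Cal27, an established human line of oral squamous cell carcinoma from the tongue, kept for 24 hours in the treatment medium. The groups were high-glucose DMEM with control medium, high-glucose DMEM with 10 nM recombinant human CGRP, high-glucose DMEM with 5 mM 2-DG and control medium, and the same 2-DG medium with 10 nM CGRP. The libraries are titled TG and capTG. The design text of the series reads these as CGRP and control, whereas the growth protocol names only different CM, so the treatments are given here as the design text gives them. The titles number the 3 libraries of a group as replicates 1 to 3, all of the same cell line. How far these repetitions are independent was not tested. The negative sign of a difference below means that CGRP lowered a gene more, or raised it less, with 2-DG than without it.

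CGRP is a peptide released by sensory nerve endings, and the tongue is densely supplied by such nerves. It acts through the receptor CALCRL with its partner RAMP1, which signals mainly through cyclic AMP. 2-DG is a glucose analogue that is phosphorylated by hexokinase and then slows glycolysis. Because it also resembles mannose, it interferes with the sugar chains built on proteins in the endoplasmic reticulum (ER), and poorly glycosylated proteins that fail to fold call up the unfolded protein response, which raises ER chaperones, the import channel and the degradation machinery of the ER.

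The 12 libraries held 28.04M to 32.18M counts each. Summed levels of 8 squamous keratinocyte markers (KRT5, KRT14, KRT6A, KRT17, TP63, SFN, DSG3, COL17A1) were 4670 to 5230 CPM (counts scaled to library size) in every library. The sum of 6 fibroblast markers was 25.4 to 27.0 CPM in the high-glucose control, 26.2 to 28.7 with CGRP, 18.1 to 19.7 in the 2-DG control and 24.4 to 25.4 with CGRP and 2-DG. In the same order, 4 endothelial markers, mostly CDH5, summed to 24.3 to 25.2, 42.3 to 43.9, 21.3 to 25.1 and 39.5 to 43.7 CPM. For 6 neuron markers, NEFM being the highest, the sums were 12.4 to 12.9, 21.6 to 23.1, 14.7 to 16.4 and 22.5 to 26.4 CPM. Replicate 2 of the 2-DG control stood apart from its group, at 34.6 on the second principal component (7.39% of the variance) where replicates 1 and 3 lay at -14.8 and -9.78, so the main counts below are also given without it. Between 2 replicates of a group, the chi-square of the counts per degree of freedom is near 1 for sampling noise alone. It was 45.9 and 35.94 for the pairs with this library and 1.428 to 5.597 for all other pairs. The 3 libraries with both 2-DG and CGRP also held a trace of transcripts of cytotoxic lymphocytes, blood cells that a pure culture of Cal27 would not contain. Over 26 such genes, drawn up after the first of them had been seen, these 3 libraries held 297, 300 and 412 counts in all, 9.95 to 14.0 CPM, whereas the 15 other libraries of the series held 34 to 60 counts, 1.04 to 2.11 CPM of the raw total. Whether this trace had a part in the other results was not tested. Its own counts are described at the end.

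Of 18159 genes tested, 71 (0.391%) had a CGRP effect that differed between the media, by edgeR's quasi-likelihood test with a Benjamini-Hochberg adjusted p under 0.05 (called genes, below). The difference was negative for 49 genes (0.27% of those tested) and positive for 22 (0.121%). With scaling by total counts in place of TMM the split was 35 negative and 28 positive. An unadjusted p under 0.05 was reached by 1549 genes. For comparison, CGRP alone changed 2216 genes (12.2%) in 2-DG medium, 964 up (5.31%) and 1252 down (6.89%), and 787 genes (4.33%) in high glucose, 371 up (2.04%) and 416 down (2.29%). With total-count scaling the 2-DG split was 1265 up and 954 down. The effects in the 2 media come from separate libraries. Of 578 genes that passed in both media, 574 moved in the same direction in both. Most differences were small: 35 of the 49 negative and 10 of the 22 positive ones were under 0.5 on the log2 scale, and the median over all genes tested was -0.01. Without replicate 2 of the 2-DG control 50 genes were called, 44 of them among the 71, and leaving out any 1 of the other 11 libraries gave 13 to 23. A fit of only the 11 other libraries of the 4 groups called 830 of 17914 genes tested, 465 negative and 365 positive, which held all 71. Counts of list members called in this fit, below, stand beside those shares. Of the 71, 67 were tested in each of 22 alternative settings, while IL2RB, CD96, SRP9P1 and KIF23-AS1 were tested in 20. No called gene changed direction in a setting that tested it, and 11 kept the call in each: HSPA5, RRP12, SEC61A1, TRAM1, DNAJB11, AGR2, KIF20A, SSR1, WARS1, PDIA4 and LAMB3. The 27 genes not called in the fit of all libraries but replicate 2 of the 2-DG control had adjusted p-values of 0.0502 to 0.111 there. They were COPG1, CTHRC1, HM13, KIF23-AS1, MOGS, NCOA5, PLPP5, PTHLH, PYCR1, SLC19A1, SLC35F6, SND1, SRPRB, STT3A, SYT12 and TMEM184A with a negative difference and FAM72D, FGF1, HBP1, HCG27, HJURP, HMMR, KIF23, NRIP3, TEC, TPX2 and TRAV8-1 with a positive one.

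The 49 genes with a negative difference had a median CGRP response of -0.46 (log2) in 2-DG medium and -0.02 in high glucose. Of these 49, 38 passed the test for a CGRP effect in 2-DG medium only, 4 in both media in the same direction, 3 in both in opposite directions and 4 in high glucose only. The 22 genes with a positive difference had median responses of 0.43 in 2-DG medium and -0.11 in high glucose. Of these, 19 passed in 2-DG medium only and 1 in each of the other classes. The effect of 2-DG itself uses the same control libraries, so it is given beside these values and not as a separate finding: its median was 0.67 without CGRP and 0.18 with CGRP over the 49 genes, and -0.51 and -0.03 over the 22.

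**Figure D1:**
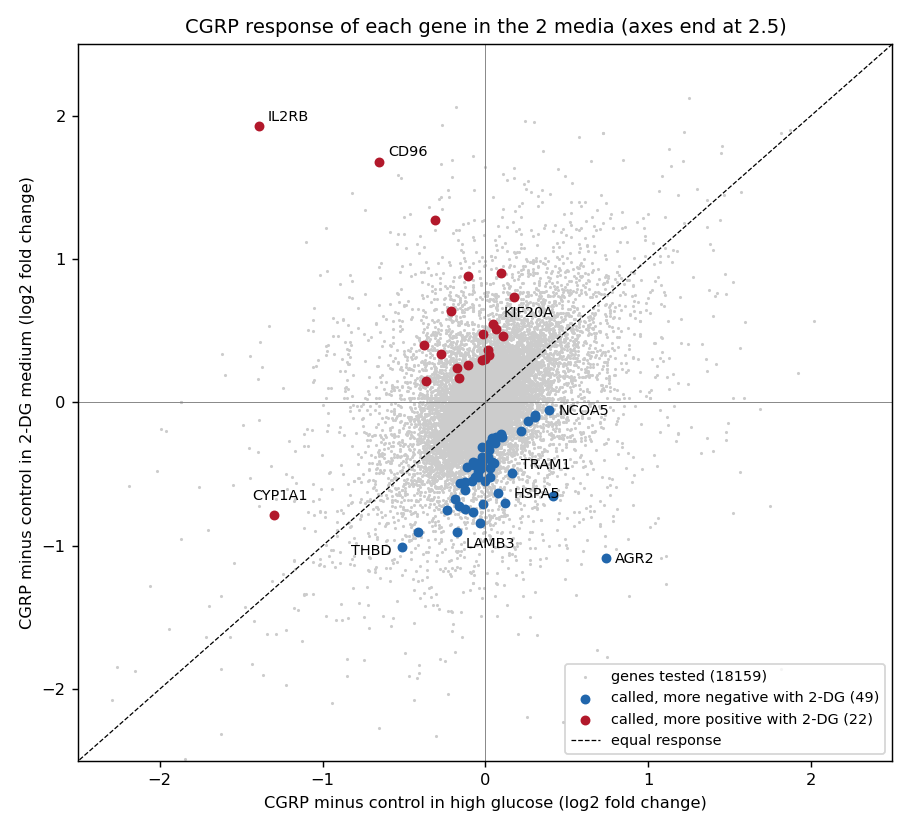
Each point is a gene (18159 tested, of which a few with larger changes lie outside the axes), with its log2 fold change for CGRP in high glucose on the horizontal axis and in 2-DG medium on the vertical axis, and the dashed line marks an equal response. The 49 called genes with a negative difference (blue) lie below the line, mostly near 0 on the horizontal axis, and the 22 with a positive difference (red) lie above it.

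Among chaperones of the ER, which fold newly made secretory and membrane proteins, 5 fell with CGRP in 2-DG medium by more than in high glucose, where none of them passed. HSPA5 (ENSG00000044574), the main ER chaperone, also known as BiP, stood at 926, 918 and 924 CPM in the high-glucose control and at 988, 1007 and 1013 CPM with CGRP. In 2-DG medium it stood at 2201, 2437 and 2164 CPM in the control and at 1444, 1373 and 1362 CPM with CGRP. The 2-DG control libraries were thus the highest, the 2-DG libraries with CGRP lay in between, and no 2 groups overlapped. The response to CGRP was -0.70 ± 0.07 (log2 ± SE) in 2-DG medium (adjusted p = 9.6e-06) and 0.12 ± 0.07 in high glucose (adjusted p = 0.51). The difference was -0.82 ± 0.10 (95% interval -1.04 to -0.61, adjusted p = 0.0020).

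PDIA4, a protein disulphide isomerase, went from 847 ± 14.4 to 617 ± 2.69 CPM (SD, n = 3) with CGRP in 2-DG medium. In high glucose it stood at 451 ± 3.09 and 443 ± 1.76 CPM (difference -0.43 ± 0.06, adjusted p = 0.0061). HYOU1, a large ER chaperone of the HSP70 kind, had a difference of -0.62 ± 0.10 (adjusted p = 0.020), falling by 0.75 on the log2 scale in 2-DG medium. DNAJB11 and DNAJB9, co-chaperones of HSPA5, had differences of -0.54 ± 0.08 (adjusted p = 0.0073) and -0.48 ± 0.09 (adjusted p = 0.026). DNAJC10, an ER reductase of the same family outside the list, had a difference of -0.47 ± 0.08 (adjusted p = 0.021). These genes share one pattern of levels: close values in both high-glucose groups, the highest in the 2-DG control and an intermediate value with CGRP and 2-DG.

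Of 27 genes tested in a list of ER chaperones and of ER-associated degradation, those 5 (HSPA5, PDIA4, HYOU1, DNAJB11, DNAJB9) were called and 26 had a difference below 0. Negative calls made up 0.27% of all genes tested. The median difference was -0.43. In 2-DG medium 19 of the 27 fell with CGRP and none rose, with a median response of -0.39. Of all genes tested 6.89% fell there. In high glucose none of the 27 passed, with a median of 0.01 (median over all genes tested -0.01 in each medium). 2-DG raised 22 of the 27 in control medium, where it raised 7.99% of all genes tested. Several members with large differences missed the threshold. MANF, a secreted ER stress protein, had a difference of -0.89 ± 0.20 (adjusted p = 0.071), with 79.7, 112 and 83.0 CPM in the 2-DG control and 54.5, 50.6 and 52.2 with CGRP. Replicate 2 was the highest of the 2-DG controls for MANF and for HSP90B1 (-0.66 ± 0.14, adjusted p = 0.063), as it was for HSPA5 and DNAJB11. It was the lowest for PDIA4 (832 CPM, against 861 and 847) and HYOU1 (311 CPM, against 347 and 343). Without this library 6 of the 27 were called in a fit of all other libraries of the series, and 22 in a fit of only the 11 others of the 4 groups, all negative. Over all genes these fits called 38 of 18543 and 465 of 17914 negative. Among the sensors and factors of the unfolded protein response, XBP1, a transcription factor activated by splicing, had a difference of -0.41 ± 0.09 (adjusted p = 0.071), and the sensors ATF6 (-0.11 ± 0.10, adjusted p = 0.86) and ERN1 (0.07 ± 0.23, adjusted p = 0.96) had small ones.

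Promoters of ER chaperones carry the ER stress response element, the letters CCAAT and CCACG with 9 bases between them, which unfolded protein response factors bind, and some carry the shorter letters TGACGTGG. Both were searched on both strands in RefSeq promoters (GRCh38.p14), from 250 bases before to 50 bases after each start. A promoter was found for 12037 of the symbols tested. The longer element was present for 16 of these (0.133%) and for 7 of the 25 chaperone and degradation genes with a promoter (28%): CALR, CANX, CRELD2, HSP90B1, HSPA5, PDIA6 and XBP1. Among 38 called genes with a negative difference and a promoter, HSPA5 alone held it. The shorter element was present for 147 of 12037 genes (1.22%), for 1 of the 25 chaperone and degradation genes (4%, HYOU1) and for 4 of the 38 called genes (10.5%), DNAJC10, HYOU1, SSR3 and TXNDC11. PDIA4, DNAJB11 and DNAJB9 held neither. Stretches of HSPA5, HYOU1 and DNAJC10 are shown because, of the called genes described above, these held an element, with the element in capitals and each sequence in the gene's own direction. The first covers bases -100 to -1 before the start of HSPA5 (chr9:125241344-125241443, minus strand), the second bases -230 to -131 of HYOU1 (chr11:119057336-119057435, minus strand) and the third bases -170 to -71 of DNAJC10 (chr2:182716087-182716186, plus strand), where the element reads on the opposite strand. A match describes these letters and not a bound factor.
HSPA5: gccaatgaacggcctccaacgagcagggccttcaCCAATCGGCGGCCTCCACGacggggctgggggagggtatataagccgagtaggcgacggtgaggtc
HYOU1: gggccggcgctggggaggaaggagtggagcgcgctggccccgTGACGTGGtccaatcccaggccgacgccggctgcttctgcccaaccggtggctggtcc
DNAJC10: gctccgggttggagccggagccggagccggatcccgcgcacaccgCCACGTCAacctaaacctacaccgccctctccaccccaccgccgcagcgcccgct

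Several genes of the machinery that carries new proteins into the ER also had a negative difference. SEC61A1, the pore of the import channel, stood at 258, 259 and 250 CPM in the high-glucose control, 262, 260 and 261 with CGRP, 452, 447 and 452 in the 2-DG control and 330, 331 and 321 with CGRP and 2-DG. Its response to CGRP was -0.46 ± 0.04 in 2-DG medium and 0.03 ± 0.04 in high glucose, a difference of -0.49 ± 0.06 (adjusted p = 0.0012). TRAM1, a membrane protein beside the channel, had the smallest adjusted p of all genes tested (1.9e-04) with a difference of -0.66 ± 0.06. It rose with CGRP in high glucose, from 171, 181 and 172 to 199, 192 and 196 CPM (0.17 ± 0.04, adjusted p = 0.038), and fell in 2-DG medium, from 374, 358 and 374 to 262, 261 and 264 CPM (-0.49 ± 0.04, adjusted p = 1.8e-06). SRPRB, the membrane subunit of the receptor for the signal recognition particle, had a difference of -0.69 ± 0.14 (adjusted p = 0.041). Its 2-DG controls, at 99.3, 124 and 104 CPM, all lay above the 2-DG libraries with CGRP, at 68.2, 61.8 and 62.8 CPM. HM13, the signal peptide peptidase, had a difference of -0.55 ± 0.11 (adjusted p = 0.040). Without replicate 2 of the 2-DG control neither was called, SRPRB at -0.59 (adjusted p = 0.086) and HM13 at -0.475 (adjusted p = 0.084). SSR1 and SSR3, subunits of the translocon-associated complex, had differences of -0.46 ± 0.06 and -0.49 ± 0.07.

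A list of 29 import genes, drawn up after the first of these had been seen, held 9 called genes, all with a negative difference (SEC61A1, SEC63, TRAM1, SSR1, SSR3, SRPRB, SPCS3, HM13, NCLN), and its median was -0.28. Over all genes tested 0.27% were called negative. Within the list 15 members fell with CGRP in 2-DG medium and none rose, whereas in high glucose 1 rose and none fell. Of all genes tested 6.89% fell in 2-DG medium. Without replicate 2 of the 2-DG control 7 of the 29 were called in the fit of all other libraries and 15 in the fit of 11, all negative. Over all genes these fits called 38 of 18543 and 465 of 17914 negative. None of the signal recognition particle subunits in the list was called, and SRP9 and SRP72 lie near equal responses in the plot of list members. Because the list was chosen on these values, its count describes the group and is no independent evidence.

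**Figure D2:**
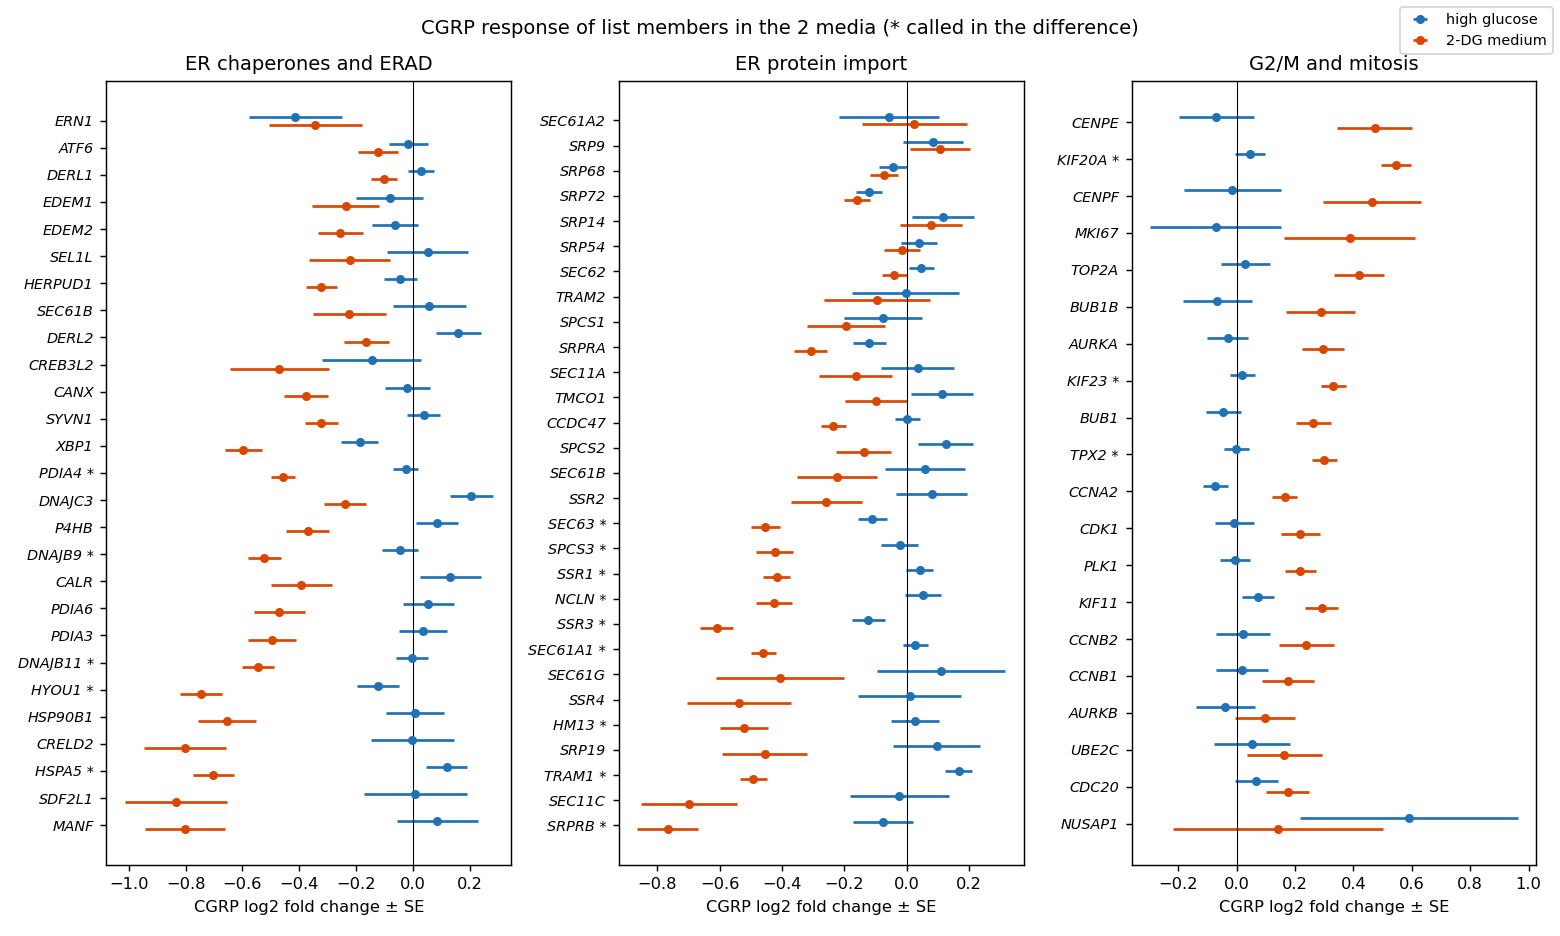
Log2 fold change with CGRP (± SE) in high glucose (blue) and in 2-DG medium (orange) for every tested member of 3 lists, sorted by the difference, with asterisks at called genes. Orange points lie left of blue ones for 26 of 27 ER chaperone and degradation genes, and right of blue ones for 19 of 20 mitotic genes.

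In 2 further lists, of sugar chain synthesis and of ER-Golgi transport, the median differences were smaller than in the ER lists above. Among 38 genes of the hexosamine pathway and N-glycosylation, which build and attach sugar chains, 2 were called: STT3A, a catalytic subunit of the oligosaccharyltransferase (-0.37 ± 0.07, adjusted p = 0.032), and MOGS, the glucosidase that begins trimming the attached chain (-0.34 ± 0.06, adjusted p = 0.033). The median of the list was -0.21 and 32 of 38 differences were below 0. Among all genes tested, 0.27% were called negative. CGRP lowered 17 and raised 1 of them in 2-DG medium, and lowered 2 in high glucose. It lowered 6.89% and 2.29% of all genes tested in these media. STT3A went from 210, 219 and 204 to 153, 156 and 158 CPM with CGRP in 2-DG medium. Neither STT3A nor MOGS was called without replicate 2 of the 2-DG control, in the fit of all other libraries, where no member of the list was called. In the fit of 11 libraries both were called (adjusted p = 2.6e-05 and 8e-05), and 16 of the 38 were called negative and 1 positive. Of 36 vesicle coat and cargo receptor genes between the ER and the Golgi, another list drawn up later, COPG1, TMED2 and TMED10 were called, all negative, and the median was -0.17. The share called negative over all genes tested was 0.27%. CGRP lowered 11 of the 36 and raised none in 2-DG medium, where 6.89% of all genes tested fell, and none passed in high glucose. The fit of 11 libraries called 14 of the 36, all negative.

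Of the called genes whose average level reached 1 on the log2 CPM scale, the one with the largest difference was AGR2, a disulphide isomerase of the ER that secretory epithelia use to fold mucins. It stood at 7.31, 6.89 and 7.67 CPM in the high-glucose control and rose to 11.4, 12.3 and 12.8 with CGRP (0.74 ± 0.17, adjusted p = 0.021). In the 2-DG control it stood at 39.8, 54.9 and 40.0 CPM and fell to 23.3, 20.5 and 19.8 with CGRP (-1.08 ± 0.15, adjusted p = 2.1e-04). The difference was -1.82 ± 0.23 (adjusted p = 0.0023), and -1.66 without replicate 2 of the 2-DG control (adjusted p = 0.0048). SERPINH1, the collagen chaperone HSP47, also rose in one medium and fell in the other, by 0.22 ± 0.05 and -0.20 ± 0.05, a difference of -0.42 ± 0.07 (adjusted p = 0.019). NUCB2, a calcium-binding secretory protein, had a difference of -0.71 ± 0.11 (adjusted p = 0.015), and CCPG1, a receptor for autophagy of the ER, one of -0.69 ± 0.12 (adjusted p = 0.024). In both, the high-glucose groups overlapped and the 2-DG groups did not.

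Matrix and secreted factors appeared among the called genes singly. LAMB3 (ENSG00000196878), a chain of laminin 332 that anchors epithelium to its basement membrane, stood at 849, 821 and 856 CPM in the high-glucose control and at 772, 728 and 737 with CGRP. In the 2-DG control it stood at 1544, 1555 and 1474 CPM and with CGRP at 833, 821 and 788, which overlapped the high-glucose control. Its difference was -0.73 ± 0.07 (95% interval -0.88 to -0.58, adjusted p = 2.7e-04). LAMA3, another laminin chain, had a difference of 0.17 ± 0.19 (adjusted p = 0.90). Over 15 laminin and hemidesmosome genes tested, another list drawn up later, differences ran from -0.73 to 0.17. Of these, 8 were below 0 and 7 above it, with a median of -0.02. LAMB3 alone was called, where 0.27% of all genes tested were called negative. The fit of 11 libraries called 4 of the 15, all negative. LAMB3 was the only called gene of 29 in a list of matrix, protease and mesenchymal genes, whose median was -0.05, and the fit of 11 libraries called 2 negative and 1 positive. CTHRC1, a secreted glycoprotein, had a difference of -0.81 ± 0.16 (adjusted p = 0.041), with 10.0, 13.3 and 10.8 CPM in the 2-DG control and 6.81, 5.86 and 6.35 with CGRP. It was not called without replicate 2 of that control (-0.69, adjusted p = 0.076). THBD, the anticoagulant receptor thrombomodulin, fell in both media, by 1.01 on the log2 scale with 2-DG and by 0.51 without it (difference -0.50 ± 0.07, adjusted p = 0.0061). PTHLH, which encodes parathyroid hormone-related protein, had a difference of -0.40 ± 0.08 (adjusted p = 0.043).

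Many genes of amino acid supply and of the integrated stress response, which ATF4 controls, fell with CGRP in both media. Few of them were called in the difference in the main fit, and more in other settings. Of 38 tested, 27 fell in 2-DG medium and 22 in high glucose, and only PYCR1, an enzyme of proline synthesis, was called in the difference. Of all genes tested, 6.89% fell in 2-DG medium and 2.29% in high glucose. PYCR1 fell by 0.90 ± 0.07 with 2-DG and by 0.42 ± 0.07 without it (difference -0.49 ± 0.09, adjusted p = 0.032). The median difference of the list was -0.13, and 28 of 38 differences were below 0. PSAT1, of serine synthesis, went from 338 ± 3.35 to 193 ± 2.72 CPM in high glucose and from 420 ± 17.1 to 192 ± 3.12 CPM in 2-DG medium, a difference of -0.32 ± 0.07 that missed the threshold (adjusted p = 0.066). TRIB3, a pseudokinase induced by ATF4, had -0.45 ± 0.11 (adjusted p = 0.13). Of 22 alternative settings, PSAT1 was called in 6 and TRIB3 in 3, DESeq2 and the fit of 11 libraries among them for both. For ATF4 (-0.07 ± 0.14), DDIT3 (0.01 ± 0.32), ASNS (0.49 ± 0.42), CHAC1 (0.43 ± 0.20) and GDF15 (-0.08 ± 0.09) the adjusted p was 0.59 or more. Of 20 tRNA synthetases, 18 had a difference below 0, with a median of -0.08. WARS1, the cytosolic tryptophanyl-tRNA synthetase, was the only called one. It stood at 80.3, 78.9 and 78.2 CPM in the high-glucose control, 65.3, 68.2 and 67.8 with CGRP, 111, 117 and 114 in the 2-DG control and 68.9, 68.6 and 66.2 with CGRP and 2-DG, so that both CGRP groups overlapped (difference -0.51 ± 0.06, adjusted p = 0.0012). Without the library that stood apart, none of the 38 was called in the fit of all other libraries, and in the fit of 11 libraries 13 were called negative and 1 positive. DESeq2 called 5 of the 38, all negative. Of the 20 synthetases, the fit of 11 libraries called 3 and DESeq2 2, all negative. Negative calls over all genes were 465 of 17914 in that fit and 138 of 18159 with DESeq2.

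Among other metabolic genes, SLC19A1, the reduced folate carrier, had a difference of -0.56 ± 0.10 (adjusted p = 0.032). It went from 39.4, 45.1 and 39.6 to 26, 24.0 and 25.3 CPM with CGRP in 2-DG medium, and from 26.6, 25.3 and 25.1 to 22.2, 23.2 and 23.4 CPM in high glucose. RRP12, a factor of ribosome assembly, fell in both media and more so with 2-DG (-0.49 ± 0.07, adjusted p = 0.0041). AMD1 (-0.34 ± 0.06, adjusted p = 0.029) and MAT2A (-0.37 ± 0.07, adjusted p = 0.041), enzymes of polyamine and S-adenosylmethionine synthesis, fell with CGRP in 2-DG medium and did not pass in high glucose.

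The remaining called genes with a negative difference were of mixed function. CYB561, a membrane cytochrome, went from 118, 123 and 117 to 94.1, 89.9 and 90.9 CPM with CGRP in 2-DG medium, while its high-glucose groups overlapped at 77.4 to 81.5 CPM (difference -0.40 ± 0.06, adjusted p = 0.0081). CSGALNACT2, an enzyme of chondroitin sulphate synthesis in the Golgi, had a difference of -0.45 ± 0.08 (adjusted p = 0.029), and STEAP3, an iron reductase, one of -0.36 ± 0.07 (adjusted p = 0.037). SND1, a nuclease-like protein of RNA metabolism, had -0.29 ± 0.06 (adjusted p = 0.042), TXNDC11, a thioredoxin-domain protein of the ER, -0.31 ± 0.06 (adjusted p = 0.042) and PLPP5, a lipid phosphatase, -0.43 ± 0.09 (adjusted p = 0.047). The differences of TMEM39A, TTC13, SLC38A10 and SLC35F6 were -0.38, -0.44, -0.32 and -0.34. All 10 genes of this paragraph fell with CGRP in 2-DG medium and did not pass in high glucose.

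**Figure D3:**
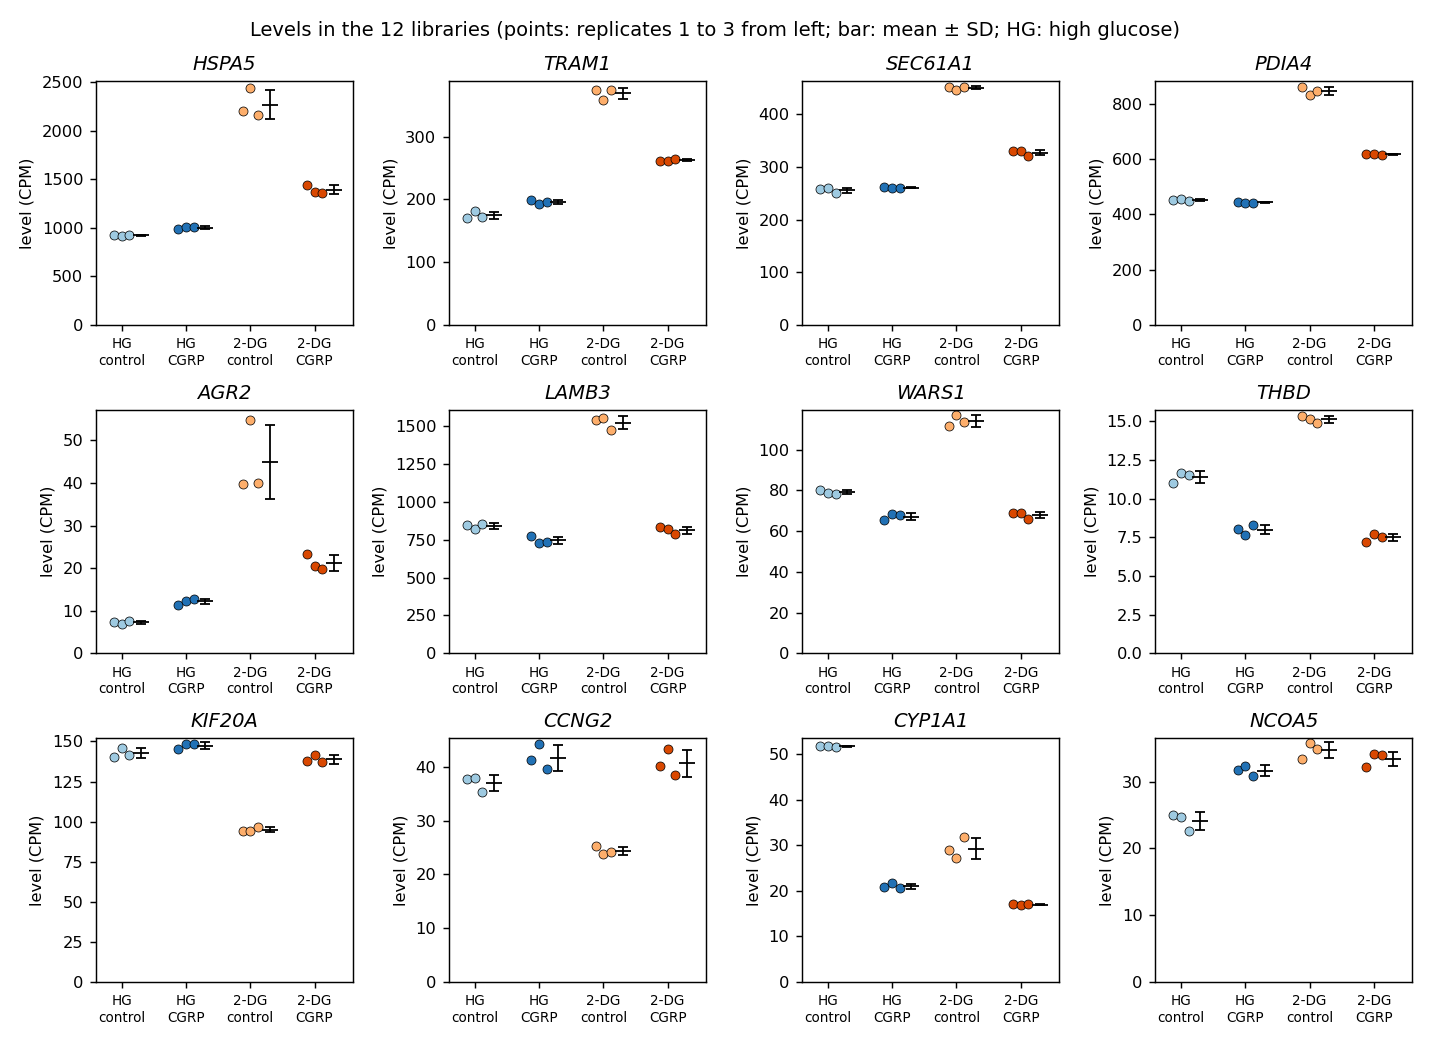
Levels in CPM of 12 called genes in the 12 libraries, with a point per library and a bar for the mean ± SD of each group. For HSPA5, TRAM1, SEC61A1, PDIA4, AGR2 and LAMB3 the 2-DG control stands highest and CGRP lowers it, and for KIF20A and CCNG2 the 2-DG control stands lowest and CGRP raises it.

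Genes of mitosis differed in the other direction. KIF20A (ENSG00000112984), a kinesin needed for cytokinesis, stood at 141, 146 and 142 CPM in the high-glucose control and at 145, 149 and 149 with CGRP. It stood at 94.2, 94.0 and 96.8 CPM in the 2-DG control and at 138, 142 and 137 with CGRP. The 2-DG control was thus the lowest group, and CGRP brought the level to that of the high-glucose control or slightly under it. The response was 0.55 ± 0.05 in 2-DG medium (adjusted p = 3.9e-06) and 0.05 ± 0.05 in high glucose (adjusted p = 0.81), a difference of 0.50 ± 0.07 (adjusted p = 0.0061). KIF23, a kinesin of the central spindle, had a difference of 0.31 ± 0.06 (adjusted p = 0.037), and TPX2, a spindle assembly factor, one of 0.30 ± 0.06 (adjusted p = 0.042). These were the called members of a list of 20 genes of G2 phase and mitosis, in which 19 had a difference above 0 and the median was 0.27. In 2-DG medium 11 of the 20 rose with CGRP and none fell, and in high glucose none passed (medians 0.28 and -0.00). Over all genes tested, 5.31% rose with CGRP in 2-DG medium and 0.121% were called positive in the difference. 2-DG lowered 13 of the 20 in control medium, where it lowered 5.85% of all genes tested. The exception in sign was NUSAP1, at 0.30 to 0.45 CPM on average in the 4 groups. Outside the list, CEP55, which acts in the last step of cell division, had a difference of 0.37 ± 0.07 (adjusted p = 0.025), HMMR, a spindle protein, 0.35 ± 0.07 (adjusted p = 0.032), and HJURP, the chaperone of centromeric histone, 0.32 ± 0.06 (adjusted p = 0.040). Without replicate 2 of the 2-DG control 1 of the 20 was called in a fit of all other libraries of the series, and 18 in a fit of only the 11 others of the 4 groups, all positive. Over all genes these fits called 12 of 18543 and 365 of 17914 positive. For 22 genes of DNA replication and of entry into S phase the median was -0.07, with 17 differences below 0. None of the 22 was called, which is near the share called over all genes tested (0.391%). DESeq2 called 2 of them negative, and the fit of 11 libraries 3 negative and 1 positive. Negative calls over all genes were 138 of 18159 with DESeq2 and 465 of 17914 in that fit. In a bulk sample, more dividing cells and more of each transcript per cell cannot be told apart.

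The cell cycle genes homology region, the letters TTTGAA, marks many promoters active in G2 phase and mitosis. Searched on both strands in the same windows, it was present for 1687 of 12037 tested genes (14.0%), for 11 of 17 genes of the mitosis list with a promoter (64.7%), and for 6 of 14 called genes with a positive difference (42.9%): CEP55, FAM72D, FGF1, HJURP, HMMR and KIF23. The stretches from -100 to -1 of HMMR (chr5:163460532-163460631, plus strand, GRCh38.p14), with 2 matches in a row, and of KIF23 (chr15:69414249-69414348, plus strand) show it in capitals. KIF20A held no match in its window.
HMMR: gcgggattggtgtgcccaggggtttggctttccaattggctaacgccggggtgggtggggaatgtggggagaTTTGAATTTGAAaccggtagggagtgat
KIF23: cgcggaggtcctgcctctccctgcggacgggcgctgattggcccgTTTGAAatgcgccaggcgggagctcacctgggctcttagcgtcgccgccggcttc

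Not all genes with a positive difference belong to dividing cells. CCNG2, an atypical cyclin associated with arrest, went from 25.3, 23.8 and 24.1 to 40.2, 43.3 and 38.5 CPM with CGRP in 2-DG medium and from 37.7, 38.0 and 35.3 to 41.3, 44.4 and 39.6 CPM in high glucose (difference 0.56 ± 0.10, adjusted p = 0.021). HBP1, a transcriptional repressor also tied to arrest, had a difference of 0.49 ± 0.10 (adjusted p = 0.043). CYP1A1, an enzyme induced through the aryl hydrocarbon receptor, fell with CGRP in both media, but less with 2-DG. It went from 51.7, 51.8 and 51.6 to 20.9, 21.6 and 20.5 CPM in high glucose, and from 28.8, 27.1 and 31.7 to 17.1, 16.8 and 17 CPM in 2-DG medium (difference 0.52 ± 0.09, adjusted p = 0.020). FGF1, a fibroblast growth factor, rose by 0.51 ± 0.07 with 2-DG and by 0.06 ± 0.07 without it (difference 0.45 ± 0.09). Its adjusted p of 0.0498 was the highest among the called genes. OLR1, a scavenger receptor, had a difference of 0.36 ± 0.06 (adjusted p = 0.022), TEC, a tyrosine kinase, 0.78 ± 0.15 (adjusted p = 0.042), and NRIP3 0.42 ± 0.08 (adjusted p = 0.041).

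For several called features the counts are uncertain because they share sequence or overlap with other genes and how such reads were counted is not known here. These are the pseudogenes NPM1P27 (0.98 ± 0.17, adjusted p = 0.020) and SRP9P1 (1.58 ± 0.27, adjusted p = 0.022), FAM72D, one of several near-identical copies (0.51 ± 0.10, adjusted p = 0.042), the T cell receptor segment TRAV8-1 (0.61 ± 0.13, adjusted p = 0.049), the HLA region transcript HCG27 (0.85 ± 0.17, adjusted p = 0.047) and the antisense RNA KIF23-AS1. KIF23-AS1 had a difference of -1.06 ± 0.22 (adjusted p = 0.048), opposite in sign to KIF23, at 0.90 to 1.94 CPM.

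A small class consisted of genes that passed in high glucose and not in 2-DG medium. NCOA5, a nuclear receptor coregulator, rose with CGRP from 25.0, 24.7 and 22.6 to 31.7, 32.4 and 30.8 CPM in high glucose (0.39 ± 0.06, adjusted p = 0.0012). In 2-DG medium it stood at 33.4, 35.7 and 34.9 CPM in the control and at 32.2, 34.1 and 34.0 with CGRP, where the groups overlapped (-0.05 ± 0.06). LPAR1, a receptor for lysophosphatidic acid (0.26 and -0.13), SYT12, a synaptotagmin (0.31 and -0.10), and TMEM184A (0.30 and -0.09) showed the same order of responses in high glucose and with 2-DG, and their differences ran from -0.41 to -0.39 (adjusted p = 0.032 for each). RSRC2 was the only gene to fall with CGRP in high glucose and rise with 2-DG, by -0.16 ± 0.04 and 0.17 ± 0.04 (difference 0.33 ± 0.06, adjusted p = 0.032).

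**Figure D4:**
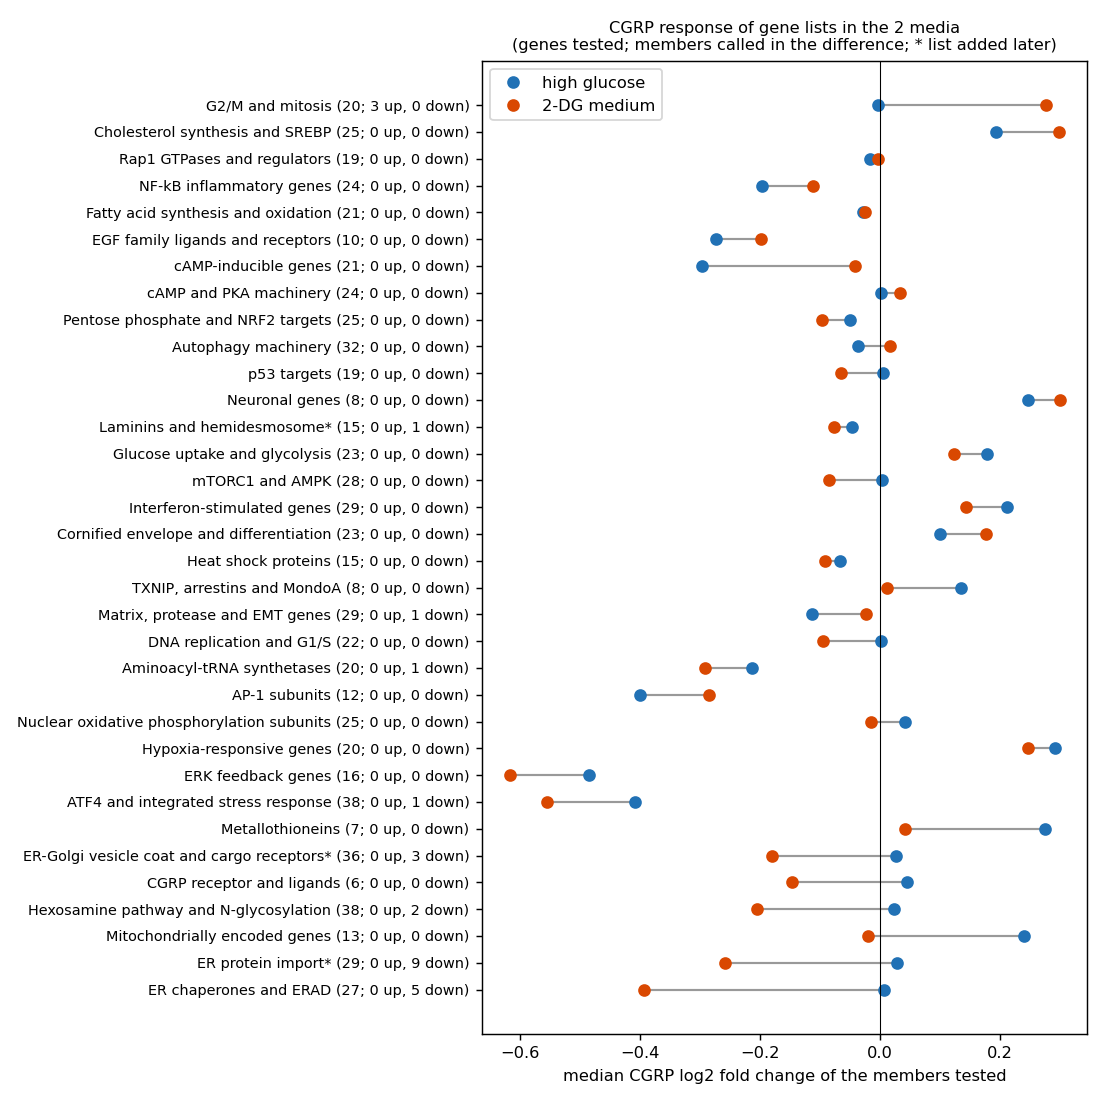
Median log2 fold change with CGRP over the tested members of each gene list in high glucose (blue) and in 2-DG medium (orange), sorted by the median difference, with the number tested and the members called in the difference after each name. ER chaperones and ERAD stand at the bottom, with medians of 0.01 and -0.39, and G2/M and mitosis at the top, with -0.00 and 0.28.

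Several genes with large responses to CGRP in both media did not pass the test of the difference. CSF2, a myeloid growth factor, fell by 1.86 ± 0.10 on the log2 scale in 2-DG medium and by 1.63 ± 0.11 in high glucose, a difference of -0.23 with a 95% interval of -0.54 to 0.07. FOSL1, an AP-1 subunit, fell by 1.62 ± 0.09 and 1.29 ± 0.09 (-0.33, interval -0.60 to -0.06, adjusted p = 0.43). DUSP6, a phosphatase that limits ERK signalling, fell by 1.13 ± 0.08 and 1.02 ± 0.09 (-0.11, interval -0.36 to 0.14), and SPRY4, another ERK inhibitor, by 1.52 ± 0.22 and 1.42 ± 0.26 (-0.10, interval -0.85 to 0.65). IL1A, an alarm cytokine, went from 467 ± 6.76 to 231 ± 4.20 CPM in high glucose and from 445 ± 2.29 to 262 ± 6.58 CPM in 2-DG medium (0.25, interval 0.13 to 0.38, adjusted p = 0.095). IL6 had a difference of 0.59 (interval 0.21 to 0.98, adjusted p = 0.23). Of 22 alternative settings, IL1A was called in 4 and IL6 in 2. None of 12 AP-1 subunits, 16 ERK feedback genes, 21 cyclic AMP-inducible genes, 24 inflammatory NF-kB genes or 29 interferon-stimulated genes was called, with medians of -0.08, -0.10, 0.03, 0.06 and -0.03. The share called over all genes tested was 0.391%, at which lists of these sizes would hold few or no calls. Of 25 genes of cholesterol synthesis, 16 rose with CGRP in 2-DG medium, where 5.31% of all genes tested rose. In high glucose 7 of the 25 rose, where 2.04% of all genes did (list medians 0.30 and 0.19). None was called in the difference, whose median was 0.14, and 9 were called, all positive, in the fit of 11 libraries. The 13 mitochondrially encoded genes had a median difference of -0.25 with none called, and the 25 nuclear genes of oxidative phosphorylation one of -0.09 with none called. In the fit of 11 libraries, 5 of the 24 NF-kB genes and 1 of the 21 cyclic AMP-inducible genes were called positive, and 1 ERK feedback gene, 1 interferon-stimulated gene and 4 of the 13 mitochondrial genes negative. Over all genes that fit called 365 positive and 465 negative of 17914 tested. DESeq2 called 2 NF-kB genes and 1 cholesterol gene positive, and 1 ERK feedback gene, 1 interferon-stimulated gene and 2 mitochondrial genes negative. Over all genes DESeq2 called 90 positive and 138 negative of 18159 tested.

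Genes that report on the treatments themselves also had no called difference. The receptor CALCRL had 0.44 (interval -0.11 to 0.99) and its partner RAMP1 -0.23 (interval -0.74 to 0.29), at mean levels of 4.31 to 6.22 and 18.4 to 23.0 CPM. TXNIP, which is induced by sugar phosphates, rose with CGRP by 0.33 ± 0.06 and 0.35 ± 0.06 with and without 2-DG (difference -0.02, interval -0.20 to 0.16). ARRDC4, its relative, had -0.23 (interval -0.41 to -0.04, adjusted p = 0.42), the glucose transporter SLC2A1 -0.02 (interval -0.25 to 0.20) and hexokinase HK2 0.01 (interval -0.44 to 0.46). ARRDC4 was called in 2 of 22 alternative settings. None of 23 genes of glucose uptake and glycolysis was called, which is near the share over all genes tested (0.391%). In the fit of 11 libraries 3 were called, all positive. A missed threshold does not show equal responses, and the intervals give the range of differences these data allow.

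The third medium of the series, without glucose, offers CGRP responses from 6 other libraries. Replicate 2 of its CGRP group stood apart, at 59.3 on the second principal component where the other 2 lay at -12.5 and -13, so the responses are also given without it, an alternative added after the data were seen. HSPA5 stood at 20560, 20840 and 20390 CPM in the glucose-deprived control and at 18250, 22050 and 18450 CPM with CGRP. Its response was -0.07 ± 0.07 (adjusted p = 0.545), and -0.159 ± 0.05 without that library (adjusted p = 0.0466). SEC61A1 (-0.04 ± 0.04), TRAM1 (0.05 ± 0.04) and LAMB3 (-0.09 ± 0.05) passed neither with nor without it. Among the other called ER chaperones, PDIA4 rose there (0.21 ± 0.04, adjusted p = 0.0054). HYOU1 (-0.09 ± 0.07), DNAJB11 (-0.07 ± 0.06) and DNAJB9 (-0.14 ± 0.06) did not pass. For these chaperones values without that library are not given. KIF20A fell with CGRP there (-0.39 ± 0.06, adjusted p = 2.6e-04, and -0.382 without that library), as did CCNG2 (-0.48 ± 0.07, adjusted p = 3.8e-04, and -0.418 without it), whereas both rose in 2-DG medium. AGR2 stood at 201.4, 215.9 and 214.7 CPM in that control and at 307.6, 478.3 and 306.9 CPM with CGRP, replicate 2 being the highest. It rose by 0.79 ± 0.15 there (adjusted p = 0.0021) and by 0.552 ± 0.10 without that library (adjusted p = 0.00112). The differences between 2-DG and glucose-deprived medium were not tested.

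Among the called genes, IL2RB and CD96, receptors of lymphocytes, had the largest and the second largest fitted positive differences (3.32 ± 0.55 and 2.33 ± 0.43, adjusted p = 0.020 and 0.032). Their counts were few. IL2RB had 11, 8 and 9 counts in the high-glucose control, 3, 5 and 3 with CGRP, 2, 4 and 9 in the 2-DG control and 22, 17 and 18 with CGRP and 2-DG. Other genes of cytotoxic lymphocytes were found in these 3 libraries and nearly nowhere else. GZMA, a granule protease, had 31, 37 and 47 counts there and 0 or 1 in each of the 15 other libraries of the series. NKG7 had 22, 16 and 24 counts and 0 elsewhere, GNLY 26, 28 and 40, GZMB 24, 19 and 34, and the pan-leukocyte gene PTPRC 15, 18 and 25. For 19 of the 26 genes of the list all 3 of these libraries lay above all 15 others, while KLRB1 and CD3G were at 0 in all 4 groups. Of the 26, 11 passed the filter on low counts and 2 were called. Most of the 11 passed the filter through the 3 libraries where they are high, so these counts are no test of the list. Where these transcripts came from was not tested.

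**Figure D5:**
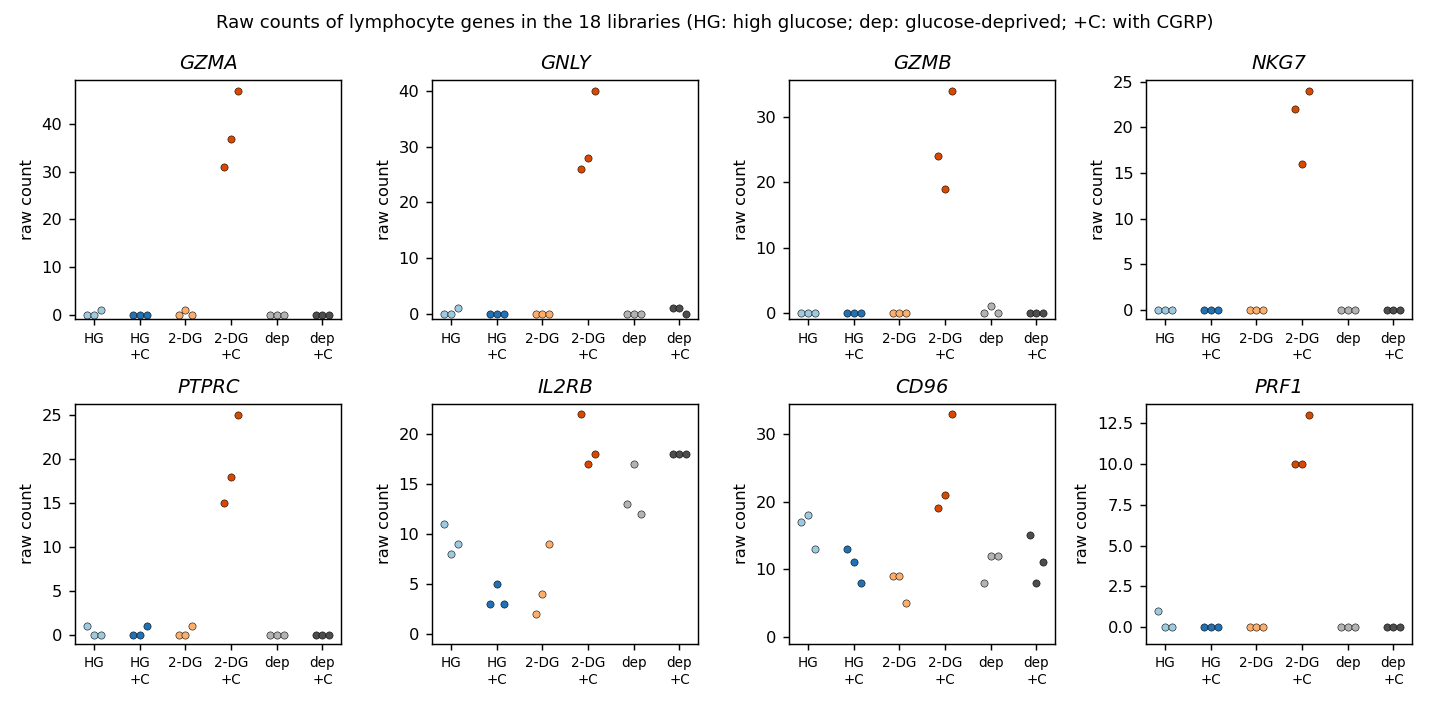
Raw counts of 8 lymphocyte genes in all 18 libraries, 3 points per group, with each panel on its own scale. The 3 libraries with both 2-DG and CGRP stand above all others for GZMA, GNLY, GZMB, NKG7, PTPRC, CD96 and PRF1, whereas IL2RB is also counted in the glucose-deprived libraries, at 12 to 18.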

How the data were processed

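RNA sequencing of total RNA from Cal27 cultures was measured in 6 groups of 3 libraries, of which 4 groups enter the difference. The authors deposited a table of raw counts, 1 column per library and 60683 Ensembl gene IDs, per the file headers. Reads were aligned with HISAT2 2.0.4, per the submitters' processing notes, which name both hg19 and GRCh38, so no coordinates of the counted features are given. Neither the labels nor the headers say which program, annotation or strand setting gave the counts. Symbols were found for 60370 IDs. Genes with at least 10 counts (filterByExpr, at least 15 in total) left 18159. Counts were scaled by TMM and fitted in edgeR 4.0.16 (R 4.3.3), quasi-likelihood with robust estimation, with a mean for each of 6 groups over all 18 libraries (12 residual degrees of freedom). Each comparison was tested as a contrast, with Benjamini-Hochberg adjustment over all genes and a threshold of 0.05. CPM are counts scaled to a common library size with the TMM factors. The common biological coefficient of variation was 9.44%, and library totals of 28.04M to 32.18M counts limit the precision of genes under 1 CPM most.

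Named genes are the 12 largest differences each way among called genes whose average log2 CPM reached 1 and that have an official symbol, up to 4 called members of each of 31 lists, 20 fixed genes, and up to 5 genes of each response class. Others named were chosen after their values were seen. The members and lists were chosen with earlier results of these data known, and 4 lists were added later. The code was tested on simulated data. P-values measure the spread between numbered repetitions of 1 cell line, whose independence was not tested. Promoter sequences are RefSeq's, GRCh38.p14.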

Additional observations from a re-analysis of the deposited data

Results flagged for a closer look

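The difference between media in the response to CGRP was itself tested, and each gene here passed that test. In all, 71 genes did. Among genes of the ER and of protein import the differences (log2, 2-DG minus high glucose) included -1.82 for AGR2, -0.823 for HSPA5, -0.707 for NUCB2, -0.693 for CCPG1, -0.691 for SRPRB, -0.658 for TRAM1, -0.622 for HYOU1, -0.55 for HM13, -0.544 for DNAJB11, -0.477 for DNAJB9, -0.432 for PDIA4, -0.369 for STT3A and -0.341 for MOGS. Other genes with a negative difference included CTHRC1 (-0.808), LAMB3 (-0.73), SLC19A1 (-0.558), WARS1 (-0.511) and PYCR1 (-0.489).

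Genes of mitosis with a positive difference included KIF20A (0.502), CEP55 (0.367), KIF23 (0.312) and TPX2 (0.301). Other positive differences included 0.984 for NPM1P27, 0.846 for HCG27, 0.778 for TEC, 0.609 for TRAV8-1, 0.563 for CCNG2, 0.516 for CYP1A1, 0.514 for FAM72D, 0.491 for HBP1, 0.452 for FGF1 and 0.415 for NRIP3.

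A signal outside the comparison was the sum over 26 lymphocyte genes, at 297, 300 and 412 counts in the 3 libraries with 2-DG and CGRP, above the 41 to 46 counts of the 2-DG control. Its source was not tested.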

How the results depend on the processing

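The count of 71 called genes was 228 with DESeq2, 30 with no low-count filter, 142 in a fit of the 12 libraries, 1092 without both libraries that stand apart (the second is replicate 2 of the glucose-deprived group with CGRP) and 830 in the fit of 11 libraries, an alternative added after the data were seen. Leaving out 1 library at a time gave 13 (without high-glucose control 1) to 50 (without 2-DG control 2), and 23 at most without any of the other 11. The cause was not tested. For CGRP in 2-DG medium the counts were 5249 and 4807 without the libraries that stand apart, and 1447 to 2044 with 1 library left out, the lowest being 1466 and 1447 without replicates 2 and 3 of CGRP with 2-DG. In high glucose they were 474 with no filter, 3520 and 3155 without those libraries, and 353 to 925 with 1 left out, where each of the 6 high-glucose libraries gave 353 to 487. Total-count scaling gave 28 positive and 35 negative differences (44.4% positive, against 31.0%), and RLE size factors 27 and 45. Total-count scaling also moved the split of calls for CGRP in 2-DG medium to 1265 up and 954 down. The median difference of ER chaperones was -0.39 to -0.43, and that of mitotic genes 0.26 to 0.31, under these scalings and without replicate 2 of the 2-DG control.

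Replicate numbers did not pair the libraries: correlations of same-numbered deviations ran from -0.154 to 0.145, with 1 of 18 above 0.1. A replicate block called 68 genes, 59 of them among the 71, and 59 in the fit of 12 libraries.

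Some named genes not called in the main fit were called in other settings: PSAT1 in 6 of 22, IL1A in 4, TRIB3 in 3, and IL6 and ARRDC4 in 2 each. No called gene changed sign. Values near 0 that were not called did: without both libraries that stand apart and in the fit of 11, ATF4 had 0.0193 and 0.0273 and HK2 -0.0736 and -0.0659, and with total-count scaling TXNIP had 0.0241 and SLC2A1 0.0202. With 1 library left out, DDIT3 ran from -0.12 to 0.23, ATF4 from -0.13 to 0.0194, TXNIP from -0.0726 to 0.0228, SLC2A1 from -0.0531 to 0.00841, HK2 from -0.0734 to 0.068 and SPRY4 from -0.49 to 0.15.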
